A study of Mus musculus with 2 samples.

Results

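The spots described here are 100 places of a mouse brain section that held the most Tshz2 and Nrep transcript among spots with glutamatergic signal. Brain sections of male mice aged 6 months, from the transgenic G2-3 line and from wild type (WT), were each labelled as 1 Visium CytAssist library. This assay hybridises probe pairs to RNA in a methanol-fixed section and reads them at barcoded spots, each of which covers a small area that can hold several cells. The matrices deposited for G2-3 and WT were the same file, with all 2722 barcodes shared, so the section's genotype cannot be told apart and no comparison between G2-3 and WT was possible. The labels name neither the promoter of the transgene nor the cells it acts in. The data were therefore treated as 1 library of 21695663 UMIs (unique molecular identifiers, each counting 1 captured probe) over 19465 genes.

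Members were chosen by measured values. Of 2487 spots over tissue in the WT list, 1651 (66.4%) held at least 3000 UMIs and at least 3 UMIs of Slc17a7, the vesicular glutamate transporter of cortical and hippocampal neurons, per 10000. Each was scored by the mean over Tshz2 and Nrep of the natural log of 1 plus its UMIs per 10000, and the 100 highest scores were taken. The other 1551 spots are called the other spots. Tshz2 stood at 674 counts per 1000000 UMIs of the set (CPM) in the members and 65.0 CPM in the other spots, and Nrep at 687 CPM in the members and 143 CPM in the other spots. These values chose the members and support nothing further. The score ran from 2.92 to 1.607 among the members, against a median of 0.512 in the other spots. The last member had 8 Tshz2 and 0 Nrep UMIs, whereas the first spot outside, at 1.599, had 0 Tshz2 and 25 Nrep UMIs. Members held 3044 to 19864 UMIs per spot (median 9357), and the other spots 3026 to 80174 (median 8813).

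Tshz2 encodes a teashirt zinc finger transcription factor, and Nrep a small intracellular protein first studied in neuronal regeneration. Excitatory neurons of the cerebral cortex are stacked in layers that differ in their targets and in the transcription factors, channels and secreted proteins they express. The identity of these neurons is set in part by factors such as Fezf2 and the NeuroD family, and glial and vascular transcripts mark the white matter and the surface that border the layers.

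The spots formed a narrow diagonal band. Place on the array was not used by the rule. Of the 100 members, 90 touched another member on the hexagonal grid and 71 touched at least 3. Of the grid neighbours of members that passed the limits, 59.7% were members themselves, while members made up 6.06% of all spots that passed. Patch 1 held 46 members, in array rows 32 to 45 and columns 85 to 100, and patch 2 held 42, in rows 43 to 58 and columns 101 to 119. The patches lay 2 grid steps apart, end to end, and together spanned 26.6 grid steps with an SD of 1.26 steps across. The other 12 members were a pair and 10 single spots scattered over the section. Of those 12, 9 held under 5000 UMIs, against 6 of the 88 in the patches. Their median depth was 3890.5 UMIs, compared with 11408.5 in patch 2 and 8833 in patch 1. A further 123 spots passed the limits and touched a member without being one, and these are called the adjacent spots.

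**Figure D1:**
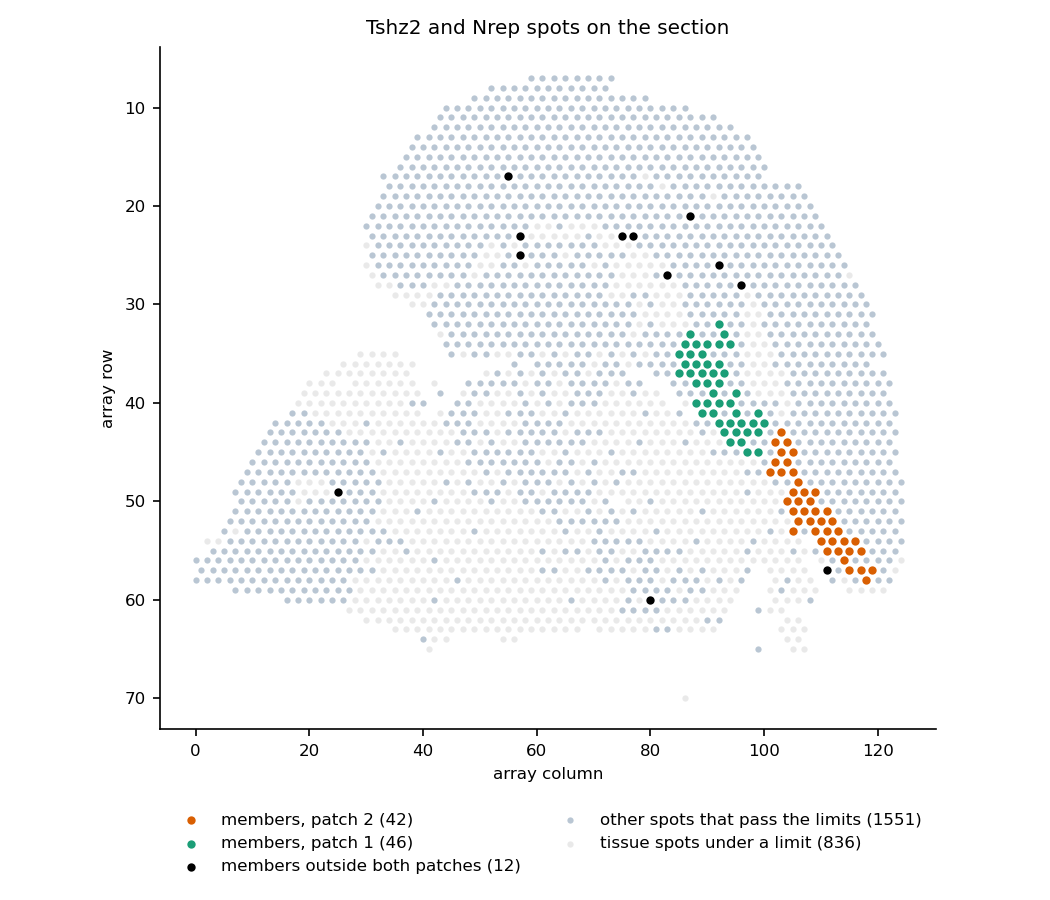
Every tissue spot by array column and array row, coloured by patch 2, patch 1, members outside both patches, other spots that passed the limits, and tissue spots under a limit, with the number of spots in the legend. The 42 spots of patch 2 and the 46 of patch 1 lie end to end along 1 diagonal band, and 12 members lie elsewhere.

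Promoters of 3 genes that lead comparisons described below are shown here: Kcns1, which was higher in the members than in the spots touching them, C1ql2, which was so in patch 2, and Neurod6, a transcription factor of the NeuroD family. The sequences are RefSeq's (GRCm38.p6), from 250 bases before to 50 after the gene start, and capitals mark matches to the E-box CAGNTG on either strand, which NeuroD-type factors can bind. Of the 12 leading higher genes, 8 had a promoter in the table used.
Kcns1, chr2:164171064-164171363, minus strand: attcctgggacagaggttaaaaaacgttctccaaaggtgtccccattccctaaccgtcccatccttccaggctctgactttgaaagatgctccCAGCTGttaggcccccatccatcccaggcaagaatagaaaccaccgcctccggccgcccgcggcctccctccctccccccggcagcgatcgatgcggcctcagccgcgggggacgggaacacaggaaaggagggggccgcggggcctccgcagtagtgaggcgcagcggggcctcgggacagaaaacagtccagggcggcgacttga
C1ql2, chr1:120340332-120340631, plus strand: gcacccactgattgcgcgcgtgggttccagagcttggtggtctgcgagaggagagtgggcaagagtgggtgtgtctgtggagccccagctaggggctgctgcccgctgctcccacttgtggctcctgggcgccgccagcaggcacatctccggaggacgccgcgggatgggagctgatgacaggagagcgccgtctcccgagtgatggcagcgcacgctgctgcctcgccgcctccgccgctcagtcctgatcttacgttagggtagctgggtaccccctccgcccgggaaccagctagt
Neurod6, chr6:55681214-55681513, minus strand: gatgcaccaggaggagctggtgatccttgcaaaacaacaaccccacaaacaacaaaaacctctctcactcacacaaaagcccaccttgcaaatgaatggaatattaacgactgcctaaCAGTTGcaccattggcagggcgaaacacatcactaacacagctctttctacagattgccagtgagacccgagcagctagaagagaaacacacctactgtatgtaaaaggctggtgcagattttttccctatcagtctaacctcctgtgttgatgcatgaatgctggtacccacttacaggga
The Kcns1 promoter held 1 match, the Neurod6 promoter 1 and the C1ql2 promoter 0. A match was present in 51.4% of 32851 promoters of the same length, so these matches are a description only. GC content was 64% for Kcns1, 67.3% for C1ql2 and 46.3% for Neurod6, against a median of 52.7% over all promoters.

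Set against all other spots, the member spots were higher in the transcription factor genes Neurod6, Tox, Klf5 and Satb1, in the secreted protein gene Dkk3 and in the channel gene Kcns1, and lower in genes of the dentate gyrus, of parahippocampal cortex and of the midbrain and hindbrain. UMIs were summed over each set of spots and scaled to CPM. Because there was 1 library, spots were not replicates and nothing was tested. Intervals are 95% exact conditional intervals for the ratio of Poisson counts and cover counting error only, and the replicate error is unknown. A single gene is called higher or lower below only where its interval leaves out equality, while counts of genes past 2-fold use the ratio alone. Among the 10498 genes that reached 100 UMIs over both sets, the members exceeded the other spots by at least 2-fold in 120 (1.14%) and fell short of them by at least 2-fold in 431 (4.11%). Fewer cells of a type in a spot and less RNA per cell cannot be told apart in any of these values.

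Dkk3, a secreted glycoprotein of the dickkopf family, had the highest lower bound of the log2 ratio among genes higher in the members. It stood at 1429 CPM in the members and 405 CPM in the other spots, a log2 ratio of 1.82 (interval 1.73 to 1.90). Single members held 0 to 34.7 Dkk3 UMIs per 10000, with a median of 13.6. At least 1 Dkk3 UMI was seen in 97% of members and 71.1% of other spots, and with every spot thinned to 3000 UMIs in 91% of members and 53.4% of other spots. Among tissue spots under the Slc17a7 limit the share was 42.2%, or 28.2% after thinning. Dkk3 was thus widespread, and single other spots reached 42.9 UMIs per 10000, above the highest member.

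Of the 12 leading genes, 4 encode transcription factors or chromatin proteins. Neurod6, a basic helix-loop-helix factor of pyramidal neurons, stood at 195 CPM in the members and 54.8 CPM in the other spots (log2 ratio 1.83, 1.60 to 2.06). Tox, an HMG-box factor best known from T cell development, had 124 CPM in the members and 31.1 CPM in the other spots (log2 ratio 1.99, 1.69 to 2.28). Klf5, a Krüppel-like zinc finger factor, had 139 CPM in the members and 39.7 CPM in the other spots (log2 ratio 1.81, 1.53 to 2.08). Satb1, a chromatin organiser, had 137 CPM in the members and 45.7 CPM in the other spots (log2 ratio 1.59, 1.31 to 1.86). Per spot these genes were sparse. The median member held 1.31 Neurod6, 1.01 Tox, 0.83 Klf5 and 1.05 Satb1 UMIs per 10000, and the lowest member held 0 of each. After thinning to 3000 UMIs, 42% of members, 13.5% of other spots and 1.2% of spots under the Slc17a7 limit had a Neurod6 UMI. Before thinning these shares were 67% of members, 33.7% of other spots and 1.2% of spots under the limit.

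Signalling and membrane genes made up the rest of the leading 12. Kit, the receptor tyrosine kinase for stem cell factor, had 145 CPM in the members and 38.6 CPM in the other spots (log2 ratio 1.91, 1.63 to 2.18). Kcns1, a silent subunit that modifies Kv2 potassium channels, had 95.1 CPM in the members and 29.5 CPM in the other spots (log2 ratio 1.69, 1.35 to 2.02). The Wnt ligand gene Wnt10a and the axon guidance receptor gene Robo3 both had a log2 ratio of 1.76. Thbs4, an extracellular thrombospondin, had the highest ratio of the 12 (2.05, 1.49 to 2.58) on only 37 UMIs in the members and 152 in the other spots. Ddit4l, an inhibitor of mTOR signalling, stood at 1.95, and Lrrc55, an auxiliary subunit of BK potassium channels, at 1.81. Among spots in the upper array columns alone, Dkk3 stood at 1.10 and Robo3 at 0.98, Robo3 then under 2-fold.

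**Figure D2:**
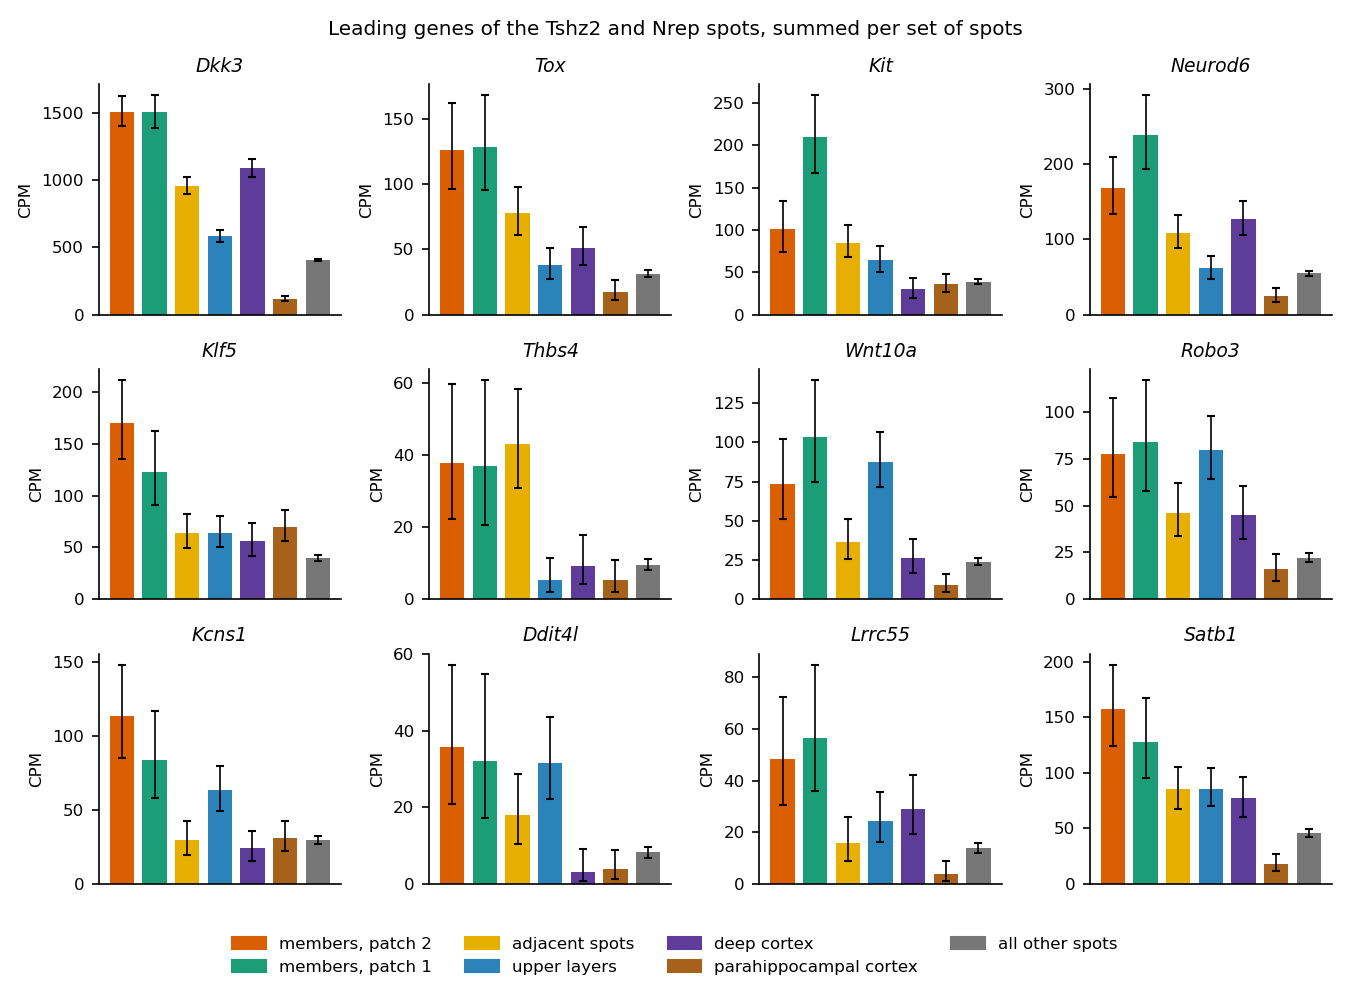
Summed CPM of the 12 leading genes in patch 2, patch 1, the adjacent spots, the upper-layer, deep-cortex and parahippocampal sets and all other spots, 1 panel per gene, each axis starting at 0. Error bars are 95% Poisson intervals for counting error. Dkk3 stands at 1508 CPM in patch 2, at 1505 CPM in patch 1 and at 405 CPM in the other spots, while Thbs4 is as high in the adjacent spots as in the patches.

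Both patches carried these genes, while the 12 scattered members, with few UMIs, were mixed. Dkk3 stood at 1508 CPM in patch 2, 1505 CPM in patch 1 and 371 CPM in the 12 scattered members, against 958 CPM in the adjacent and 405 CPM in the other spots. Klf5 had 170 CPM in patch 2, 123 CPM in patch 1 and 15.5 CPM, from 1 UMI, in the scattered members. Wnt10a, Robo3, Ddit4l and Lrrc55 had 0 UMIs in the scattered members. Neurod6 had 168 CPM in patch 2, 239 CPM in patch 1 and 124 CPM, from 8 UMIs, in the scattered members, and Tox and Thbs4 also had 77.3 and 61.8 CPM there, from 5 and 4 UMIs. With the patches' 88 spots alone as members, an alternative added after the values were seen, the counts past 2-fold became 140 higher and 491 lower.

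Genes lower in the members were led by markers of other regions. Dio3, the enzyme that inactivates thyroid hormone, had 0 UMIs in the members and 367 in the other spots. It was 7.18-fold lower when a 0 is set to 3 counts over the set, with an upper log2 bound of -2.54. Car12, a carbonic anhydrase, had 1 UMI in the members and 547 in the other spots, a log2 ratio of -5.00 (-10.31 to -2.52). Cdh23, a cadherin, had 1 UMI in the members and 513 in the other spots. The Iroquois transcription factor genes Irx1 and Irx2 stood at -3.30 (-4.93 to -2.07) and -3.14 (-4.59 to -2.02). Hoxa4, of the hindbrain and spinal cord patterning genes, had 0 UMIs in the members and 264 in the other spots. With the 0 set to 3 counts it was 5.16-fold lower, with an upper log2 bound of -2.06. Mrap2, Spp1 and Npy2r stood at -2.97, -3.31 and -3.12.

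The label of a cortical population was set against marker lists. Of 10 telencephalic glutamatergic genes, 2 were higher by at least 2-fold and 1 lower, with a median log2 ratio of 0.46, against -0.01 over all genes. With patch 1 alone as members this median was -0.09. An interval above 0 was found for 5 of the 10 and one below 0 for 2, compared with 10.2% and 9.59% of all genes. Of this list Emx1, a cortical factor, stood at 0.64 (0.11 to 1.14), whereas Bhlhe22 was lower at -1.25 (-2.03 to -0.56) and Nrn1, named after its values were seen, at -0.37 (-0.51 to -0.24). Genes that mark the dentate gyrus were lower in 6 of 6, with a median of -1.83. Among them Prox1 stood at -2.44 (-3.45 to -1.59), and Dsp had 0 UMIs in the members and 239 in the other spots. Of 7 subicular and parahippocampal genes 3 were at least 2-fold lower (Dlk1, Penk and Adam33) and 1 higher, Nts, with 15 UMIs in the members and 88 in the other spots (log2 ratio 1.54, 0.64 to 2.34). The midbrain markers Slc6a3 and Slc18a2, the serotonergic marker Tph2 and the hindbrain marker Hoxb5 each had 0 UMIs in the members. In their lists, 3 of 5 dopaminergic, 1 of 2 serotonergic and 2 of 4 midbrain and hindbrain genes were at least 2-fold lower. Over all genes this share was 4.11%. Each of these lists also had 1 gene with a ratio above 0, in the dopaminergic list Nr4a2 at 0.50 (0.08 to 0.89). Of the dentate genes, C1ql2 kept 98 UMIs in the members, against 3424 in the other spots. The glutamatergic list was thus mixed. Of the markers of other regions, 5 were at 0 UMIs, Dsp, Slc6a3, Slc18a2, Tph2 and Hoxb5, while others such as Nr4a2 and C1ql2 were not.

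Lists of cortical layers had medians from -0.48 to 0.42, apart from that of layer 4 and retrosplenial layers 2 to 4. Of the 6 genes of that list, 5 were at least 2-fold higher in the members, with a median of 1.11, against 1.14% of all genes. They were Ctxn3 (1.33), Rspo1 (1.18), the chemokine gene Cxcl14 (1.13), the potassium channel gene Kcnh5 (1.08) and Whrn (1.06). The remaining gene, Scnn1a, had 15 UMIs in the members and 233 in the other spots, and its interval included 0. Whrn and Scnn1a were named after their values were seen. In the upper array columns alone the median of this list was 0.58. Against the adjacent spots its median was 0.84, with 3 genes measured and 0 of them at least 2-fold higher. Across the band, in the grid steps described below, its sum was 584 CPM at step 0, 250 CPM at step 3 and 491 CPM at step 8. Of 12 genes of layers 2 to 4, 0 were higher by at least 2-fold and 4 lower (median -0.12), against 1.14% and 4.11% of all genes. The lower ones were Calb1, a calcium buffer of upper-layer neurons (-1.56, -1.87 to -1.26), Mdga1 (-1.69), Wfs1 (-1.43) and Otof, whose interval included 0 and which was named after its values were seen. The list was mixed, as 4 of the 12 genes had an interval above 0 and 3 below 0, against 10.2% and 9.59% of all genes. Cux2, an upper-layer factor, was among the 4, at 0.83 (0.27 to 1.35). Layer 5 genes had medians of 0.07 (intratelencephalic, 4 genes) and -0.05 (extratelencephalic, 7 genes), with Pou3f1 at 1.35 (0.97 to 1.71). Layer 6 corticothalamic genes had a median of -0.48, with Syt6 at -1.50 and Ntsr1 at 0.88, so the list held genes in both directions. The medians were 0.42 for near-projecting genes, -0.43 for layer 6 intratelencephalic and claustral genes, 0.05 for layer 6b, -0.65 for CA fields and -0.02 for thalamus.

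Astrocyte genes were modestly higher in the members than in the other spots as a whole, but not than in the adjacent spots, while the oligodendrocyte list differed by patch. Of 12 astrocyte genes, 9 had an interval above 0 and 1 below 0, against 10.2% and 9.59% of all genes, with a median of 0.40 and Slc7a10, an amino acid transporter, at 0.73. The summed astrocyte list stood at 6378 CPM in the members and 5198 CPM in the other spots. Against the adjacent spots its median was -0.01, with 0 of 11 measured genes having an interval above 0 and 1 below 0. Oligodendrocyte genes had a median of 0.08, their precursors 0.08, microglia -0.21, endothelial and mural cells 0.01 and meninges -0.21, and 0 genes of the oligodendrocyte, precursor, astrocyte, microglia and endothelial lists were at least 2-fold apart. Against the same other spots the oligodendrocyte median was -0.95 for patch 2 and 0.60 for patch 1. The meningeal list was mixed, with 1 of 8 measured genes having an interval above 0 and 2 below 0. Dcn, which encodes the matrix proteoglycan decorin, had 2 UMIs in the members and 325 in the other spots (log2 ratio -3.25, -6.30 to -1.39). Ptgds was higher in the members at 0.49 (0.44 to 0.54), and the summed list stood at 3844 CPM in the members and 2879 CPM in the other spots. Interneuron genes had a median of -0.01. Cck, a neuropeptide of interneurons and pyramidal cells, stood at 0.80 (0.71 to 0.89), Vip at 0.69 (0.37 to 1.00) and Calb2, which encodes calretinin, at -1.58 (-1.98 to -1.21). These levels moved with the groups by the amounts given, and their part in the gene ratios was not tested.

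Among transcription factors, 2 of 26 were at least 2-fold higher, among them Tshz3, and 3 were lower, Tshz1, Neurod1 and Bhlhe22, with a median of 0.44. These counts and those below stand beside 1.14% higher and 4.11% lower over all genes. The teashirt genes went opposite ways. Tshz3 had 138 CPM in the members and 51.8 CPM in the other spots (log2 ratio 1.42, 1.14 to 1.68), while Tshz1 had 11.6 CPM in the members and 34.1 CPM in the other spots (log2 ratio -1.56, -2.57 to -0.70). Nrep has been studied with transforming growth factor beta, and of 17 genes of that pathway 0 were higher by at least 2-fold and 1 lower, with a median of -0.10. The lower one, Smad4, had 4 UMIs in the members and 144 in the other spots and an interval that included 0, and was named after its values were seen. Ltbp3, which stores the latent ligand in the matrix, stood at 0.66 (0.30 to 1.01). Of 31 axon growth genes, 0 were higher by at least 2-fold and 3 lower: the guidance ligand gene Sema3e (-1.58), the netrin-G gene Ntng1 (-1.42) and Marcksl1 (-1.01).

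Synaptic and channel genes held named differences around medians near 0. Of 42 excitatory postsynaptic genes, 0 were higher by at least 2-fold and 2 lower, the AMPA receptor auxiliary gene Cnih3 (-1.37, -1.79 to -0.97) and the dendritic gene Ddn (-1.24, -1.49 to -1.01), with a median of -0.08. Of 37 presynaptic genes 2 were higher, the vesicle protein gene Sv2c (1.18) and the synaptic organiser gene Cbln2 (1.07), both named after their values were seen, and 4 lower (median -0.08). The lower ones were Syt17 (-1.62), the synaptic organisers Cbln4 (-1.25) and C1ql3 (-1.24), and the fast calcium sensor Syt2 (-1.23). Inhibitory postsynaptic genes had a median of 0.07. Of 43 potassium channel genes 2 were higher, Kcns1 and Kcnh5, and 3 lower, Kcnh2, Kcnn3 and Kcng1, the last 3 at -1.40, -1.30 and -1.24. Sodium, calcium and HCN channels had a median of -0.13, with the beta subunit Scn4b at -1.15 and the T-type calcium channel gene Cacna1g at 0.66.

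Receptors for neuromodulators gave 0 genes at least 2-fold higher and 6 lower out of 34, with a median of -0.03. For this list and those below, the shares over all genes were 1.14% higher and 4.11% lower. The lower ones included the neuropeptide Y receptor Npy2r, the alpha-2A adrenergic receptor Adra2a (-1.59, -1.96 to -1.25), the serotonin receptor Htr2a (-1.27, -2.41 to -0.33) and the dopamine receptor Drd5, which had 0 UMIs in the members and 149 in the other spots. Among 33 neuropeptides and secreted factors 5 were higher and 6 lower (median 0.06). The higher ones were Nts, Rspo1 and Cxcl14, given above, with Igfbp6 (1.34) and Adcyap1 (1.27), named after their values were seen. Of 14 calcium-binding proteins 0 were higher and 5 lower (median -0.29), namely the neuronal calcium sensor gene Hpcal1 (-1.94, -2.37 to -1.54), Calb1, Calb2, S100a10 with 0 UMIs in the members, and Hpcal4 (-1.04), the last named after its value was seen. Cadherins and protocadherins had 2 higher and 5 lower of 21 (median -0.22), led by Pcdh20 at -2.64 (-3.32 to -2.04), with Cdh2 (-2.22), Cdh6 (-1.81) and Cdh9 (-1.21) on 2, 3 and 6 UMIs in the members. Cdh13 (-1.01) and the higher Cdh10 and Cdh20 (both 1.10) were named after their values were seen.

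Lists of general cell functions stayed near the median of all genes. Their medians were 0.06 for mitochondrial respiration, 0.12 for phagocytosis and lysosome, -0.06 for neurofilaments, tau and microtubules and -0.03 for immediate early genes. In the phagocytosis list the lysosomal gene Cd68 stood at -1.45 (-2.91 to -0.31) on 6 UMIs in the members and 280 in the other spots, and Pros1 at 1.05 (0.26 to 1.76). Fosl2 stood at 1.07 (0.83 to 1.30) and Jun at -1.15 (-1.54 to -0.78), so these activity-linked genes pointed both ways.

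**Figure D3:**
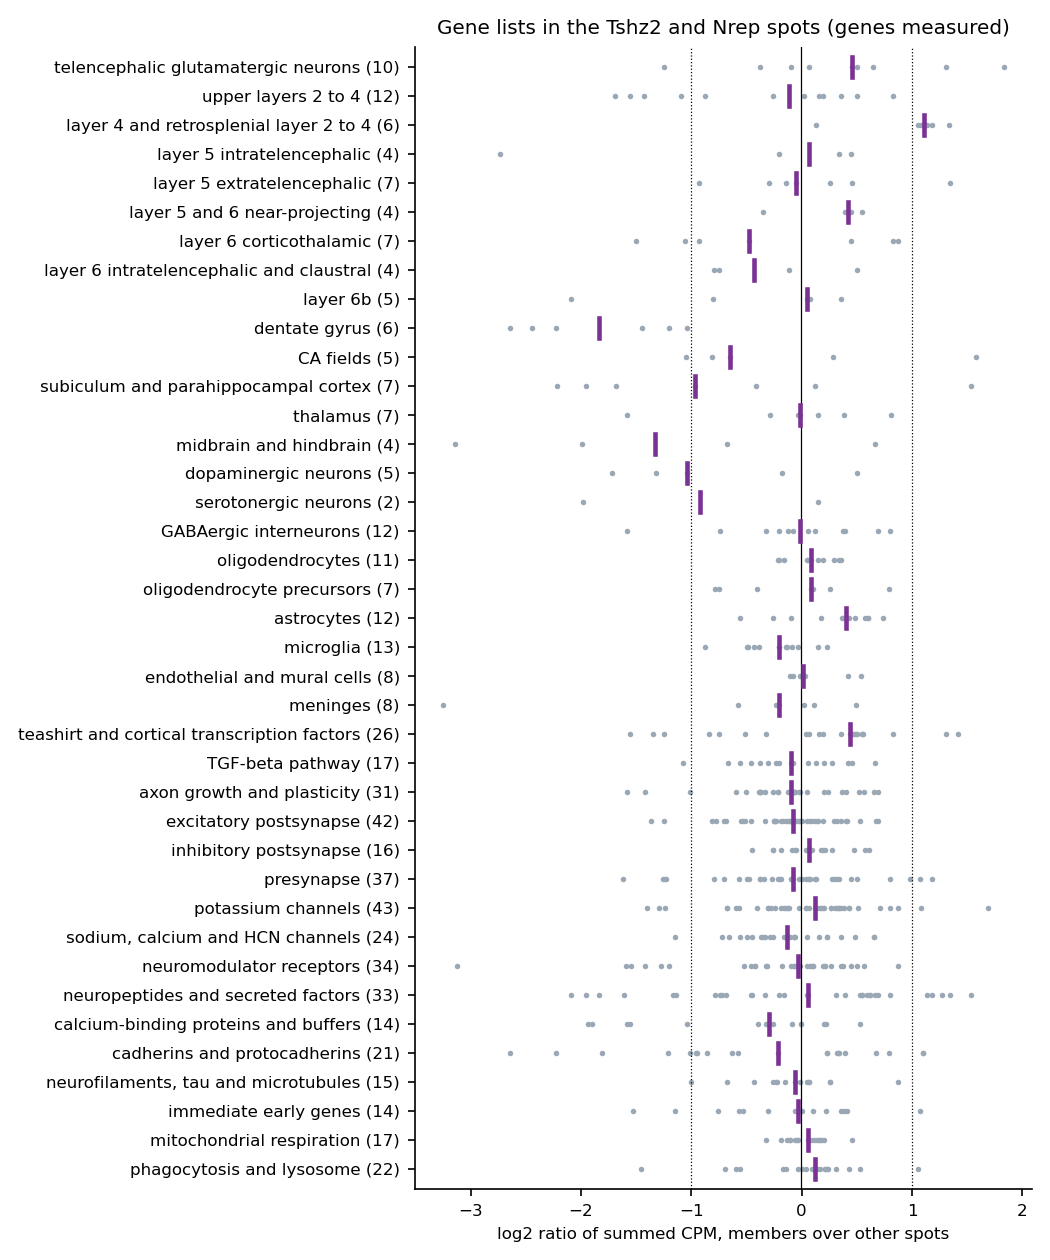
Log2 ratio of summed CPM, members over other spots, for each measured gene (grey points) of the lists described, with the list's median (purple bar) and its number of measured genes in brackets. The solid line is the median over all 10498 genes and the dotted lines mark 2-fold. The list of layer 4 and retrosplenial layers 2 to 4 has a median of 1.11, and the dentate gyrus list one of -1.83.

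Next to their immediate neighbours the members differed in few of the genes measured. Against the 123 adjacent spots, 9 of 4220 genes (0.213%) were higher by at least 2-fold and 7 (0.166%) at least 2-fold lower. Over these smaller sets fewer genes reached 100 UMIs than the 10498 of the comparison with all other spots. Sparser genes were thus left out, and the shares of the 2 comparisons are not over like genes. Kcns1 had 95.1 CPM in the members and 29.4 CPM in the adjacent spots (log2 ratio 1.69, 1.07 to 2.36), close to its 29.5 CPM in all other spots. Rreb1, a zinc finger factor of Ras signalling, stood at 1.40 (1.00 to 1.81), and C1ql2, a secreted synaptic organiser of hippocampal mossy fibres, at 1.30 (0.76 to 1.87). Both rested on patch 2, which held 94 of the 98 C1ql2 UMIs of the members and had 374 CPM of Rreb1, against 24.6 CPM in patch 1. Klf5 stood at 1.12 (0.67 to 1.59), the potassium leak channel gene Kcnk4 at 1.20 (0.61 to 1.82) and the guanine nucleotide exchange factor gene Arhgef25 at 0.82 (0.55 to 1.09). Lower than in the adjacent spots were Hs3st2, a heparan sulfate sulfotransferase (-1.43, -2.12 to -0.77), the neurexophilin gene Nxph3 (-1.07), Vxn (-0.95), Ddn (-0.89) and Nnat (-0.73). The haemoglobin gene Hba-a2 was also lower, at 1858 CPM in the members and 3216 CPM in the adjacent spots, and how blood in the tissue bears on the other genes was not tested.

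Levels followed a profile across the band. Tissue spots with at least 3000 UMIs alongside it were grouped by grid steps from its long axis, from -8 on the low-column side to 8 on the high-column side, with 22 to 32 spots per step. The steps -1, 0 and 1 held 21, 27 and 24 members. Slc17a7, whose minimum was part of the rule and which is given as a description only, stood at 58.4 CPM at step -8, 3278 CPM at step 0 and 4756 CPM at step 8. Gfap, the intermediate filament of reactive and surface astrocytes, peaked at 1332 CPM at step -2 and stood at 203 CPM at step 0. The oligodendrocyte list summed to 12622 CPM at step -8, 4146 CPM at step 0 and 3322 CPM at step 8. Dkk3 stood at 260 CPM at step -3, 1536 CPM at step 0 and 747 CPM at step 8, a steep side and a gradual one. Neurod6 had 0 UMIs at step -3, 217 CPM at step 0 and 84.9 CPM at step 8.

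Klf5 and Kit were highest at step -1, Klf5 again with a steep and a gradual side. Klf5 reached 194 CPM and Kit 231 CPM at step -1, against 41.1 CPM for Klf5 and 111 CPM for Kit at step -2. On the high-column side Klf5 stood at 110 CPM at step 1 and 97.7 CPM at step 3. Kit fell on both sides, to 97.5 CPM at step -3 on the low-column side. On the high-column side Kit stood at 139 CPM at step 0, 101 CPM at step 1 and 36.2 CPM at step 3. Pcp4, a calmodulin-binding peptide gene, was lowest in the band, with 157 CPM at step -1 and 164 CPM at step 0, against 818 CPM at step -8 and 768 CPM at step 8. Somatostatin (Sst), named after its values were seen, peaked beside the band at 1833 CPM at step 2, and the layer 6b list at 311 CPM at step 3. Neighbouring steps often overlapped within their counting intervals. Median depth was 5351.5 UMIs at step -8, 10836.5 at step 0 and 8902 at step 8, and its part in the profile was not tested.

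**Figure D4:**
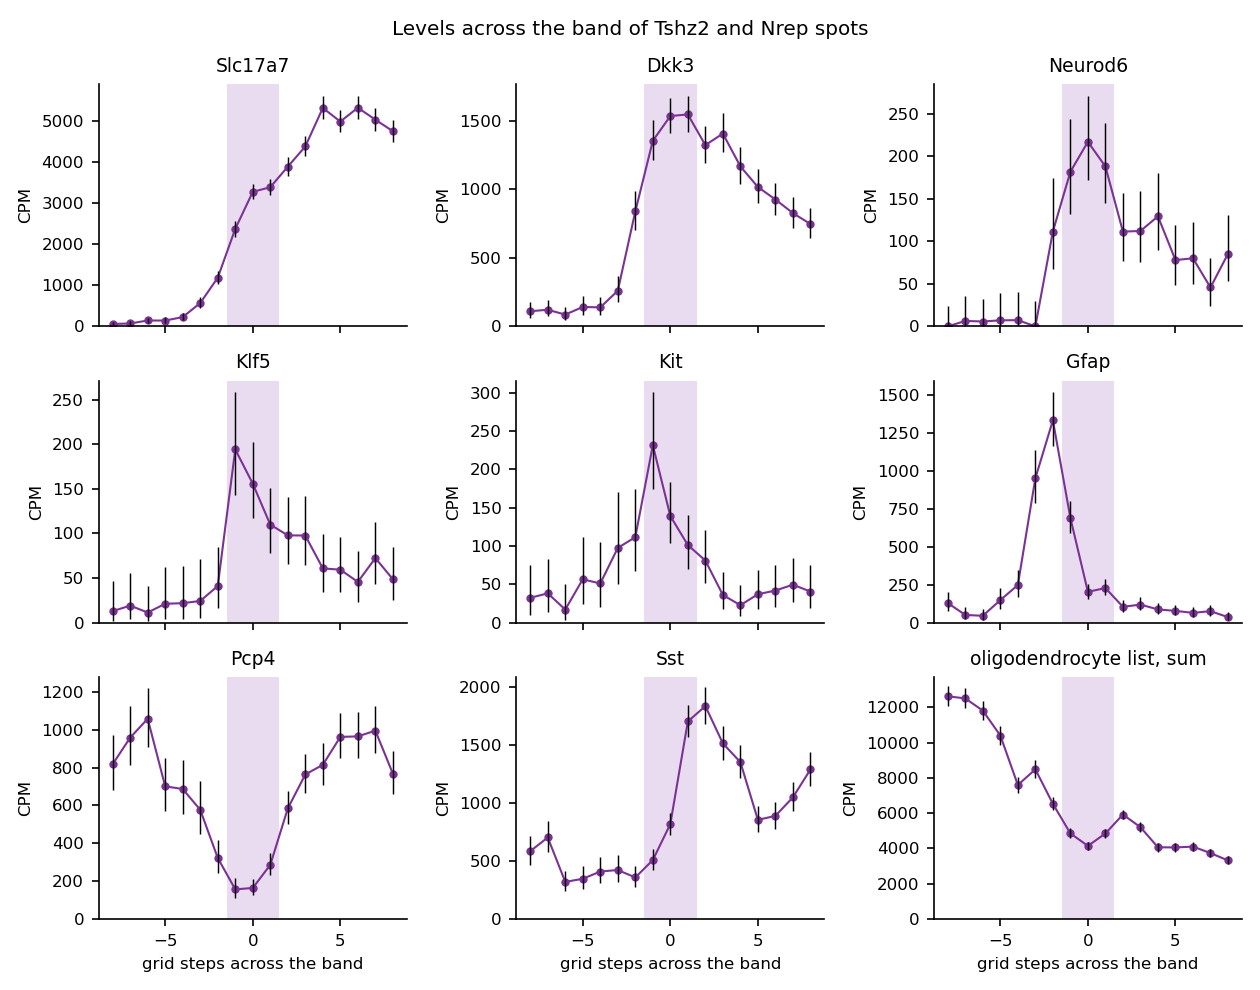
Summed CPM of 8 genes and of the oligodendrocyte list by grid steps across the band, negative on the low-column side, with 95% Poisson intervals as bars and steps -1 to 1 shaded. Slc17a7, used in the rule, stands at 3278 CPM at step 0, Gfap peaks at step -2, and Pcp4 is lowest at steps -1 and 0.

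For comparison, 3 sets of like cortical spots were taken by the same kind of score. They were the 100 highest for upper-layer genes (Cux2, Lamp5 and Rasgrf2), for deep-cortex genes (Vxn and Myl4) and for parahippocampal genes (Adam33, Penk and Reln). Before members were left out they shared 8, 0 and 1 spots with the members. The genes of each score are no finding in its comparison.

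Against the 92 upper-layer spots, 83 of 4469 genes (1.86%) were at least 2-fold higher in the members and 90 (2.01%) lower. C1ql2 had 98 UMIs in the members, 94 of them in patch 2, and 4 in the upper-layer spots (log2 ratio 4.88, 3.48 to 6.79). Gfap stood at 2.65 (2.26 to 3.05) and the neuronal calcium-binding protein gene Cabp7 at 2.63 (2.25 to 3.03). All 6 measured oligodendrocyte genes were at least 2-fold higher, with a median of 1.91 and a summed level of 5015 CPM in the members and 1411 CPM in the upper-layer spots. Clec18a had 6 UMIs in the members and 124 in the upper-layer spots (log2 ratio -4.10, -5.57 to -2.94), and Igfn1 stood at -3.23. Calb1, with 100.3 CPM in the members and 402 CPM in the upper-layer spots, the wolframin gene Wfs1 (-2.37), the carbonic anhydrase gene Car4 (-2.01) and the neuronal pentraxin receptor gene Nptxr (-1.77) were lower as well. Wnt10a stood at 81.3 CPM in the members and 87.6 CPM in the upper-layer spots, and Robo3 at 75.0 CPM in the members and 79.7 CPM in the upper-layer spots. The members thus exceeded the other spots as a whole in these genes but not the upper-layer spots.

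Against the 100 deep-cortex spots, 76 of 4203 genes (1.81%) were higher by at least 2-fold and 58 (1.38%) lower. Myoc, which encodes the secreted glycoprotein myocilin, had 171 UMIs in the members and 4 in the deep-cortex spots (log2 ratio 5.44, 4.06 to 7.33). Ptgds, the prostaglandin D synthase of meninges and oligodendrocytes, stood at 3596 CPM in the members and 411 CPM in the deep-cortex spots (log2 ratio 3.13, 2.98 to 3.29). The haemoglobin gene Hbb-bs was 5.51-fold higher. C1ql2 stood at 3.83 and Rreb1 at 2.59, both mostly from patch 2, and Gfap at 2.40. By the WT tissue list the members lay closer to the tissue edge, at a median of 4 grid steps, against 7 for the deep-cortex spots. Whether that list or the G2-3 list, which marked 77 of the 100 members as tissue, belongs to this matrix is not known. The part of the edge in these surface and blood transcripts was not tested. Pcp4 had 269 CPM in the members and 1437 CPM in the deep-cortex spots (log2 ratio -2.42, -2.61 to -2.22). Rprm (-2.42), Sema3e (-2.53), Hs3st2 (-2.49), Tmem178 (-2.07) and Ighm (-3.44) were lower too. Dkk3 stood at 1429 CPM in the members and 1088 CPM in the deep-cortex spots.

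Of the 3 like sets, the parahippocampal spots had the largest share of genes at least 2-fold apart from the members. Of 4696 genes 144 (3.07%) were at least 2-fold higher in the members and 144 (3.07%) lower than in the 99 parahippocampal spots. Dkk3 had 1429 CPM in the members and 118 CPM in the parahippocampal spots (log2 ratio 3.59, 3.35 to 3.84). Stac2, an adaptor of calcium channels, stood at 3.49 (3.07 to 3.94), Pvalb, the calcium buffer of fast-spiking interneurons, at 3.04, and Kcnh5 and Neurod6 both at 2.96. Mobp, a myelin gene, stood at 2.81 (2.60 to 3.03). Dio3 had 0 UMIs in the members and 138 in the parahippocampal spots. With the 0 set to 3 counts it was 33.0-fold lower, with an upper log2 bound of -4.73. The Wnt ligand gene Wnt2b stood at -4.84 (-6.73 to -3.45), and Igfn1, Col23a1, Ptpn14 and Hpcal1 at -3.23, -3.22, -3.06 and -2.93.

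The patches of the band were not uniform. Of 2120 genes with at least 100 UMIs over both patches, 28 (1.32%) were at least 2-fold higher in patch 2 than in patch 1 and 29 (1.37%) lower. Rreb1 had 374 CPM in patch 2 and 24.6 CPM in patch 1 (log2 ratio 3.92, 3.01 to 5.01). It was seen in 32 of the 42 spots of patch 2, with a median of 1.81 and up to 27.0 UMIs per 10000, and in 9 of the 46 spots of patch 1. C1ql2 showed the same split, at 94 UMIs in patch 2 and 2 in patch 1, which left it just under the gene minimum for this comparison. Those UMIs lay in 15 of the 42 spots of patch 2, with up to 17.1 per 10000 in 1 spot. Of the dentate markers, Prox1 did not follow C1ql2, with 2 UMIs in patch 2 and 8 in patch 1. Dsp had 0 in both patches and cannot show a split. Pcdh20, set against the other spots, stood at -3.29 in patch 1 alone and at -2.64 over all members. In patch 1 C1ql2 and Rreb1 stood below the adjacent spots, where C1ql2 had 42.0 CPM and Rreb1 75.6 CPM.

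Further genes higher in patch 2 were Ajap1, an adherens junction protein gene (1.89, 1.23 to 2.61), the receptor tyrosine kinase gene Ltk (1.69), the RNA-binding protein gene Celf5 (1.57), Itpka, an inositol trisphosphate kinase of dendritic spines (1.39), and the sulfotransferase gene Chst1 (1.39). Genes lower in patch 2 were led by blood, myelin and interneuron transcripts. Hbb-bs had 395 CPM in patch 2 and 1756 CPM in patch 1 (log2 ratio -2.15, -2.39 to -1.92). Pvalb had 101 CPM in patch 2 and 387 CPM in patch 1 (log2 ratio -1.94, -2.44 to -1.46). Mbp, the myelin basic protein gene, stood at -1.53 (-1.67 to -1.40). All 6 measured oligodendrocyte genes were at least 2-fold lower in patch 2, with a summed level of 2611 CPM in patch 2 and 7212 CPM in patch 1, and a median of -1.41, against 0.02 over all genes. Mitochondrial respiration genes had a median of -0.45 and telencephalic glutamatergic genes one of 0.31. Whether the myelin content bears on the other differences between the patches was not tested.

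Some leading genes differed in size between the patches and some did not. Kit had 101 CPM in patch 2 and 209 CPM in patch 1, with counting intervals of 74.4 to 134 in patch 2 and 167 to 259 in patch 1. Kcns1 had 113 CPM in patch 2 and 83.7 CPM in patch 1, with intervals that overlapped (85.2 to 148 in patch 2 and 58.0 to 117 in patch 1). Tox stood at 126 CPM in patch 2 and 128 CPM in patch 1. Fezf2, the selector factor of subcortically projecting neurons, had 109 CPM in patch 2 and 44.3 CPM in patch 1, with intervals of 81.6 to 143 in patch 2 and 26.3 to 70.0 in patch 1.

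**Figure D5:**
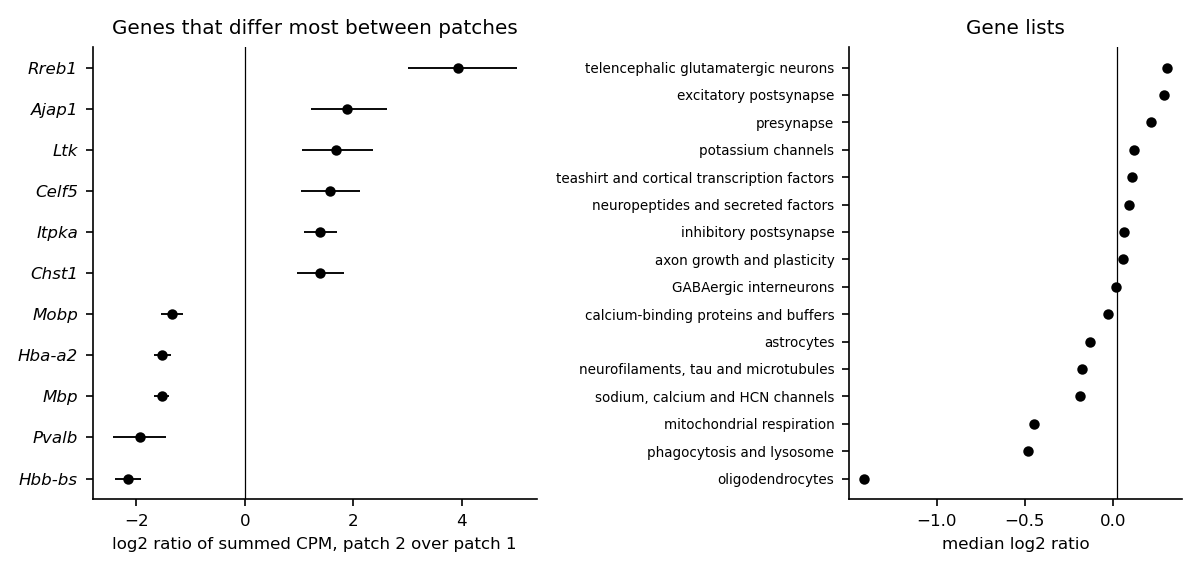
Left, log2 ratio of summed CPM, patch 2 over patch 1, for the 6 highest and 5 of the 6 lowest genes by their interval bounds, with 95% counting intervals. Right, median log2 ratio of gene lists with at least 4 measured genes, where the line marks the median of all 2120 genes. Rreb1 stands furthest to the right at 3.92 and the oligodendrocyte list furthest to the left at -1.41.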

How the data were processed

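Raw UMI counts per gene and spot were deposited by the authors as 10x matrices. Per the file headers they were made with Space Ranger 3.1.1, and per the submitters' processing notes on mm10. How probes were filtered and reads aligned was not given in the sources used here. A single matrix, the same under G2-3 and WT, was used, with the WT tissue list. Array places came from the deposited position lists.

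Counts were summed over each set of spots and scaled to CPM. Log2 ratios have exact conditional Poisson (Clopper-Pearson) intervals at 95%, with a 0 set to 3 counts over the set. Genes needed at least 100 UMIs over both sets. No doublet caller and no deconvolution were run. Spots were thinned with 1 fixed seed, and thinning left out none of the spots compared. Ratios were checked on simulated counts. The members, the gene lists and the comparisons were chosen with earlier results of these data known. Named genes were the 12 highest and 12 lowest by interval bound against the other spots, up to 4 per list with an interval off 0, and 6 each way in every other comparison. Exceptions are stated in the text, and some genes the rule names are not reported here. Alternatives covered the rule's limits and genes, the scaling (edgeR 4.0.16 TMM factors), the gene minimum, depth and place. Tools were Python 3.11.15 with numpy 2.4.6 and scipy 1.17.1, and R 4.3.3.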

Additional observations from a re-analysis of the deposited data

Results flagged for a closer look

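Signal of the rule's genes was also seen outside the spots compared. A score at or above that of the lowest member was found in 17 tissue spots that missed a limit, 13 of them under the UMI minimum and 7 under the Slc17a7 minimum. Of the 17, 6 touched a member, and their median depth was 2398 UMIs. Such a score was also found at 3 of 235 barcodes outside the tissue of the WT list, and those 235 barcodes held a median of 2507 and up to 21341 UMIs. The tissue list deposited for G2-3 marked 77 of the 100 members as tissue.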

How the results depend on the processing

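Values came from 1 library, with no replicate to leave out, and the error between sections is unknown. No paired analysis was possible because the matrices of both samples were the same file and no test was run. Counting error limits sparse genes most: among the leading genes Thbs4, Ddit4l and Lrrc55 rest on 37, 30 and 46 UMIs in the members. Of 84 named genes at least 2-fold apart with an interval off 0, 76 kept their direction under every alternative that gave them a value. There were 22 alternatives, 2 of them added after the data were seen, and 50 of the 84 genes had a value under each, the others under at least 12. The lower array columns held 4 members, too few for that alternative to be run.

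The counts of genes at least 2-fold higher (120, 1.14% of 10498 genes) and lower (431, 4.11%) moved with the settings. They were 240 and 705 with the 50 highest scores, 63 and 227 with the 200 highest, and 77 and 283 with Nrep alone as the score. A gene minimum of 20 UMIs gave 513 and 692, and one of 300 gave 39 and 161, by construction from more or fewer genes tested. The largest patch alone gave 297 and 746 and patch 2 alone 218 and 717. The upper array columns alone gave 55 and 160 of 9030 genes (0.609% and 1.77%). Thinning to 3000 UMIs gave 58 and 310 of the 7464 genes that then reached the minimum (0.777% and 4.15%). Fewer genes were tested in both of these settings, which lowers the counts by construction, apart from any shift in share. Where no construction is named, the cause was not tested.

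In the upper array columns alone the 12 leading genes ran from 0.98 (Robo3) to 1.75 (Thbs4), all still higher.

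Of 35 gene list medians within 2-fold, 26 took the other sign under at least 1 alternative, so their direction is not firm. The telencephalic glutamatergic median became -0.09 in the largest patch, the layer 6 corticothalamic one 0.66 after thinning, and that of CA fields 0.12 in the upper array columns. Results at least 2-fold apart that turned were the following. With Nrep alone the midbrain and hindbrain median became 0.41, and log2 ratios became 0.26 for Irx2, 0.044 for Mrap2, 0.021 for Neurod1, 0.11 for Scn4b, 0.26 for Slc6a3 and 0.13 for Syt2. The median of the 5 dopaminergic genes, -1.04 in the members, was the value of Slc18a2 with its 0 set to 3 counts. This median became 0.38 at 6000 UMIs per spot, 0.35 at 10 Slc17a7 UMIs per 10000 and 0.053 with Nrep alone. It was 0.090 in the largest patch and 0.35 in the upper array columns. At 300 UMIs per gene it was 0.16, by construction without Slc6a3 and Slc18a2, which fell under that minimum. In the largest patch Ptgs2 became 0.077 and Slc18a2 0.18. Both values came from a 0 set to 3 counts over that patch, so neither shows a higher level there. Where no such setting is named, the cause was not tested.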
